A study of Mus musculus with 24 samples.

Results

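Leukaemic cells that stained low for Mac-1, positive for Kit and negative for Sca-1 (MacLowKit+Sca1-, here Kit+Sca1-) were compared with the other 3 sorted fractions of the same kind of leukaemia. The 5 Kit+Sca1- libraries were taken from the sample titles, out of 24 libraries in all, and set against 14 libraries: 5 MacHigh, 5 MacLowKit-Sca1- (Kit-Sca1-) and 4 MacLowKit+Sca1+ (Kit+Sca1+). Another 5 libraries of unsorted cells were left out of the tests. Every library was made from total RNA of acute myeloid leukaemia cells of (FVB/n X C57/BL/6J) F1 mice of genotype NRASG12V/Mll-AF9, harvested from the spleen, so all groups share both oncogenes and there is no normal or untreated control. NRASG12V is an activated form of the signalling protein NRAS, and Mll-AF9 is a fusion of the chromatin regulator Mll to AF9. The labels used here do not give the promoter that drives either oncogene, the age of the mice, or whether the libraries of a group come from separate mice, so p-values measure only the spread between these libraries. By its title the study concerns self-renewal genes in the fraction enriched for leukaemia stem cells, and the sort allows each fraction to be compared with the others.

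In normal bone marrow the Kit+ Sca-1- cells include the granulocyte-monocyte progenitors, which divide and load the first granule proteins of neutrophils. Mac-1, whose alpha chain is encoded by Itgam, appears as myeloid cells mature, and Sca-1, encoded by Ly6a, marks stem cells and some mature cells. In the granulocytic branch Gfi1 and Cebpe are transcription factors needed for the step from progenitor to neutrophil, while Irf8 and Csf1r belong to the monocyte and dendritic branch. In leukaemias with an Mll fusion, Hoxa genes and Meis1 are known targets that maintain self-renewal.

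The surface markers of the gate were read first, as a description. Kit was 54.1, 38.7, 36.8, 37.6 and 31.7 FPKM, a read measure corrected for gene length and library depth, in Kit+Sca1- libraries 1 to 5. It was 26.8 to 43.6 in Kit+Sca1+, 5.22 to 7.17 in MacHigh and 0.487 to 0.895 in Kit-Sca1-, so Kit transcript separated both Kit+ fractions from the others and did not separate them from each other. Ly6a was 0.254 to 1.29 FPKM in Kit+Sca1- and 5.64 to 9.75 in Kit+Sca1+, with no overlap. Itgam was 199, 396, 137, 182 and 422 FPKM in Kit+Sca1- libraries 1 to 5, all below the 5 MacHigh libraries, which ran from 582.0 to 693, and all above the 4 Kit+Sca1+ libraries, the highest of which held 98 FPKM. Among the 5 Kit+Sca1- libraries, libraries 2 and 5 were the high ones for Itgam.

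Some rows carry no estimate for Kit+Sca1-. In 35 rows all 5 libraries were listed at 0.001 FPKM, the value that stands for 0 in the deposited table, while all libraries of another sorted group held 5 FPKM or more. Of these rows, 29 lie on chromosome 10, and all 41 rows of the table between positions 79704358 and 80320548 of that chromosome (GRCm38.p6) were at 0.001 in the 5 Kit+Sca1- libraries and above it in some other sorted library. The rows include the neutrophil granule genes Elane, Prtn3 and Prss57 in that interval and, elsewhere, Mpo, Ngp, Chi3l3, S100a8 and S100a9, so nothing is said here of their level in Kit+Sca1- cells. Another 2 rows, Lyz2 and Psap, were at 0.001 in all MacHigh libraries and were also left out of the tests. The Kit+Sca1- libraries summed to 445970 to 544828 FPKM over all rows, MacHigh to 555631 to 636313, Kit-Sca1- to 490183 to 644381 and Kit+Sca1+ to 469806 to 603735. These sums include the rows without an estimate, so those of Kit+Sca1- leave out whatever these genes held. S100a8 alone averaged 19530, 17900 and 11050 FPKM in MacHigh, Kit-Sca1- and Kit+Sca1+. The MacHigh sums lack Lyz2 and Psap in the same way. The number of sequenced reads is not in the table, so the depth behind each value is unknown.

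Of 11427 rows tested with limma, 3320 (29.1%) were higher and 3439 (30.1%) lower in Kit+Sca1- than in the mean of the 3 other group means at a Benjamini-Hochberg adjusted p under 0.05, together 59.1% of rows. Changes of 1 or more on the log2(FPKM + 1) scale were more often falls: 543 rows were higher and 1122 lower by that much. The balance of rises and falls depends on the scaling: 49.1% of the calls were rises as deposited, and 70.2% (5330 higher, 2259 lower) when every library was rescaled to the same FPKM sum, which moved the median difference of all rows from 0.0065 to 0.24. It was 57.4% (3986 higher, 2955 lower) with quantile normalization and 59.7% (4140 higher, 2794 lower) when short RNA rows were kept out of the sum. Group-specific rows, those called and with all 5 Kit+Sca1- libraries outside the range of the 14 others, numbered 892 above (7.81% of rows tested) and 829 below (7.25%). The same count without the call was 823 above (7.2%) and 605 below (5.29%) for MacHigh, 168 (1.47%) and 128 (1.12%) for Kit-Sca1-, and 570 (4.99%) and 367 (3.21%) for Kit+Sca1+; whether these counts differ was not tested. Of the 892 rows above, 888 also passed the test against each of the 3 groups, and 823 lay above the 5 unsorted libraries as well. The nearest group was Kit+Sca1+ for 377 of them, Kit-Sca1- for 368 and MacHigh for 147, with a median difference of 0.68 from that group. Of the 829 rows below, 799 passed against each group, the nearest was Kit-Sca1- for 452, Kit+Sca1+ for 323 and MacHigh for 54, and the median difference was -0.86.

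Of the 892 rows above, 782 entered the ranking, which left out short RNAs, predicted genes and genes with a mean under 5 FPKM in Kit+Sca1-. The ranked genes furthest above the other fractions belong in part to the granulocytic programme. The plot of the 15 genes with the largest distance to the nearest group shows their level in every sorted library.

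**Figure D1:**
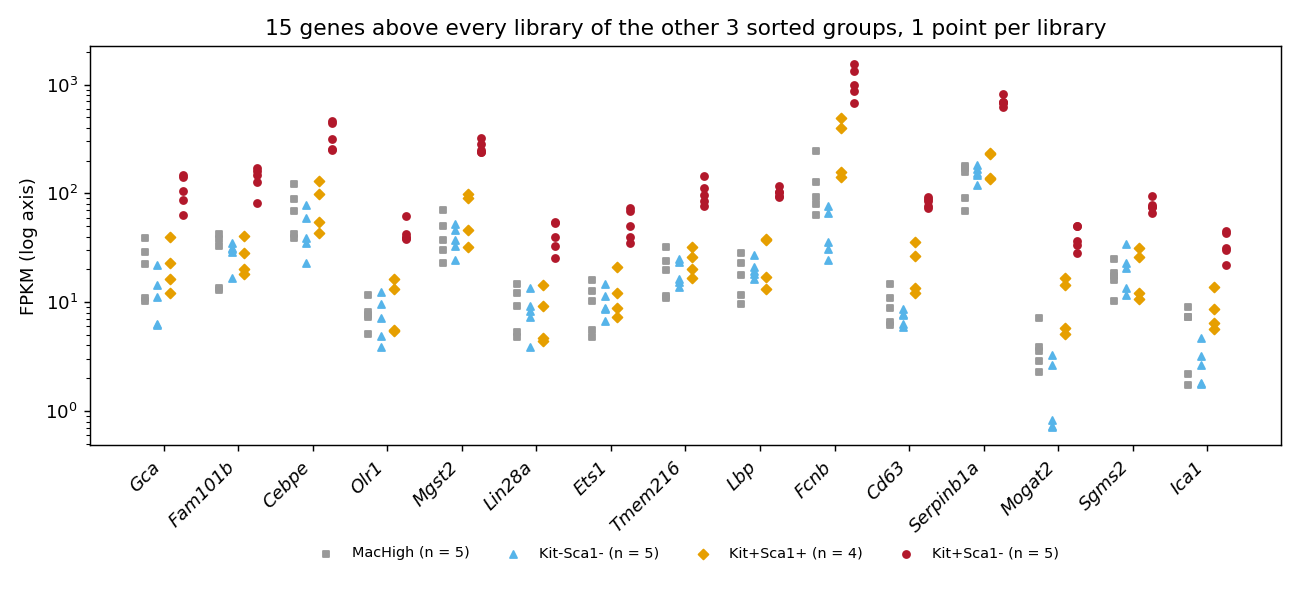
FPKM on a log axis for the 15 genes with the largest difference from the nearest group among the ranked genes above all 14 other sorted libraries, 1 point per library, coloured by group. Every Kit+Sca1- point lies above every other point of its gene, as the choice of genes requires; the highest Kit+Sca1- gene is Fcnb at 680 to 1543 FPKM.

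The promoters shown are those of the first 3 of these genes, ranked by distance to the nearest group, with an entry in the RefSeq promoter table. Each run covers the 250 bases before the start site, 5′ to 3′ on the gene's strand (GRCm38.p6), and capitals mark matches, on either strand, to 6 motifs of myeloid regulators.
Gca, chr2:62664077-62664326, plus strand: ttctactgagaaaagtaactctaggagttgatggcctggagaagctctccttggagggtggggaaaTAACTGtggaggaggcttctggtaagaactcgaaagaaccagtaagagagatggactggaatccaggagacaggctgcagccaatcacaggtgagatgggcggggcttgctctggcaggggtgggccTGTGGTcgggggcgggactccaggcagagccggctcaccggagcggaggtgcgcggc
Fam101b (listed as Rflnb), chr11:76027783-76028032, minus strand: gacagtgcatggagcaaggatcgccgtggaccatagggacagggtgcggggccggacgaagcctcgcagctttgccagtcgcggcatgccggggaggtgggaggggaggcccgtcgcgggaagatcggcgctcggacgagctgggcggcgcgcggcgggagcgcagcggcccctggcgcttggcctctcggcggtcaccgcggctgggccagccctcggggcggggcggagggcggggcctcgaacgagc
Olr1, chr6:129507166-129507415, minus strand: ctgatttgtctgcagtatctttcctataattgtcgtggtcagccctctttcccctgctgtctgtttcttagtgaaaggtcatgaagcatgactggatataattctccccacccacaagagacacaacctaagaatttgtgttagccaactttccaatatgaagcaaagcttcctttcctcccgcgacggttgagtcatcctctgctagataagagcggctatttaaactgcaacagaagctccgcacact
The Gca window held 1 match to the Myb motif TAACNG, at position -184 from the start site, and 1 to the Runx motif TGTGGT, at -57. The Fam101b and Olr1 windows held none of the 6. The start used for Olr1 lies inside the span listed for the gene (chr6:129479150-129507350), so its window overlaps that span in part. Of 27025 promoters in the table, 19.8% held the Myb motif over the same length, 14.2% the Runx motif, 9.55% the C/EBP motif TTNNGCAA, 10.4% the PU.1 motif GAGGAAG, 10.3% the GFI1 motif AAATCNC and 6.05% the Myc E-box CACGTG. A match is a run of letters, not a bound site.

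Gca, which encodes grancalcin, a calcium-binding protein abundant in neutrophils (chr2:62664327-62694109, GRCm38.p6), was 87.4, 149, 62.8, 105 and 143 FPKM in Kit+Sca1- libraries 1 to 5. The other 14 libraries ran from 6.15 to 39.9 with a median of 15.4. By the choice of these genes, which also used the adjusted p, Gca did not overlap between Kit+Sca1- and the others. Its mean was 109 ± 36.6 FPKM (SD, n = 5), 4.79 times that of Kit+Sca1+, the nearest group, and the log2 difference from the 3 groups was 2.59 (SE 0.33, limma adjusted p = 2.12e-06). Fam101b, also named Rflnb, a filamin-binding protein, was 146, 161, 81.2, 126 and 170 FPKM, against 12.8 to 42.4 elsewhere. Cebpe (chr14:54710363-54712174), the transcription factor needed for late granulocyte maturation, was 319, 460, 249, 255 and 440 FPKM. The other libraries held 22.9 to 129.8, and the log2 difference was 2.47 (SE 0.30, adjusted p = 1.24e-06). Libraries 2 and 5 were again the high ones for Cebpe and library 3 the lowest.

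Fcnb, a ficolin made by developing granulocytes, was 1001, 1543, 865, 680 and 1334 FPKM against 24.3 to 489 elsewhere, a log2 difference of 3.29 (SE 0.34, adjusted p = 1.57e-07). Cd63, a tetraspanin of primary granules and lysosomes, was 77.2, 93.3, 84.5, 72.8 and 88.4 FPKM against 5.87 to 35.8. Serpinb1a, an inhibitor of neutrophil serine proteases, was 686, 696, 628, 824 and 680 FPKM against 69.6 to 236. In all 3 genes the lowest Kit+Sca1- library exceeded the highest of the others, as the choice of genes requires. Mgst2, a microsomal glutathione transferase, was 240.2 to 322 FPKM against 22.8 to 98.8. Olr1, a scavenger receptor, was 38.2 to 61.5 against 3.88 to 16.3, and Lbp, the lipopolysaccharide-binding protein, 92.2 to 117 against 9.72 to 37.7. The remaining members of this group of 15 have roles outside granules. Ets1, a transcription factor best known in lymphocytes, was 49.9, 73.3, 35.1, 39.4 and 68.9 FPKM against 4.77 to 21.

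Lin28a, an RNA-binding protein best known from embryonic cells, where it blocks maturation of a microRNA family, was 39.9, 54.4, 25.5, 32.8 and 53.5 FPKM in Kit+Sca1- against 3.86 to 14.8 in the others. Its log2 difference was 2.19 (SE 0.29, adjusted p = 2.75e-06). The related Lin28b, picked after its values were seen, was listed at 0.001 in 4 of the 5 Kit+Sca1- libraries and at 0.0111 in the other. Igf2bp2, an mRNA-binding protein likewise picked after its values were seen, was 1.77 to 3.18 FPKM against 0.189 to 1.74 in the other 14 libraries. Mogat2, an acyltransferase of lipid synthesis, was 28.1 to 50.5 FPKM against 0.708 to 16.6. Sgms2, a sphingomyelin synthase, was 65.9 to 93.9 against 10.3 to 34.6, Tmem216, a ciliary membrane protein, 76.5 to 146 against 10.9 to 32.4, and Ica1, an islet autoantigen, 22.1 to 45.5 against 1.75 to 13.7. The cutoff between rank 15 and the next is narrow: Ica1 stood at a difference of 1.91 from the nearest group, and Dmkn, the gene after it, at 1.908.

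Of the 829 rows below, 510 entered the ranking, which asked here for a mean of 5 FPKM or more in each other group. The ranked genes furthest below the other fractions were led by monocyte and macrophage genes.

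**Figure D2:**
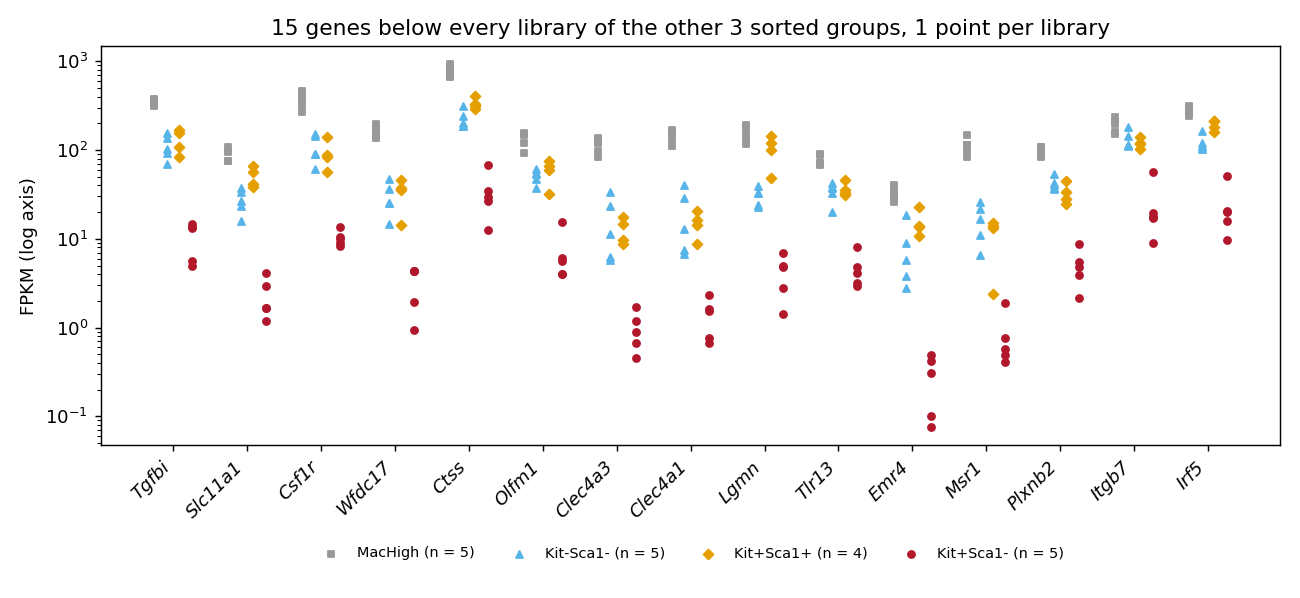
FPKM on a log axis for the 15 genes with the largest difference from the nearest group among the ranked genes below all 14 other sorted libraries, 1 point per library, coloured by group. Every Kit+Sca1- point lies under every other point of its gene, as the choice of genes requires, and MacHigh holds the highest group mean of each gene shown.

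Tgfbi, an extracellular matrix protein made by macrophages (chr13:56609586-56639359), was 13.1, 5.56, 4.99, 14.9 and 13.5 FPKM in Kit+Sca1- libraries 1 to 5. The other 14 libraries held 69.4 to 373, with no overlap, as the choice of these genes requires. The log2 difference was -3.99 (SE 0.23, limma adjusted p = 2.39e-10). Csf1r, the receptor for the macrophage growth factor M-CSF, was 9.93, 8.34, 13.6, 10.6 and 8.98 FPKM against 56 to 468, a log2 difference of -3.74 (SE 0.20, adjusted p = 1.86e-10). Slc11a1, a metal transporter of phagosomes, was 1.2 to 4.14 FPKM against 15.9 to 109. Emr4, an adhesion receptor of macrophages, had a mean of 0.279 ± 0.187 FPKM (SD, n = 5), and the nearest group mean, that of Kit-Sca1-, was 28.6 times as high. Mean levels of Msr1 (a scavenger receptor), Clec4a3 and Clec4a1 (C-type lectins of monocytes) were 0.823, 0.982 and 1.39 FPKM, and their nearest group means were 13.5, 12.8 and 10.8 times as high. Irf5, a transcription factor of inflammatory macrophages, was 16, 9.68, 20.1, 20.3 and 50.5 FPKM against 103 to 313. Library 5 stood highest in Irf5, in the integrin gene Itgb7 (56.7 FPKM against 8.97 to 19.7 in the other 4) and in Ctss, the lysosomal protease cathepsin S (67.9 against 12.5 to 35). Across the 829 rows below, library 5 was the Kit+Sca1- library closest to the other groups in 425 (51.3%), and leaving it out raised the count to 1131. With 1 Kit+Sca1- library fewer the range rule is easier to meet, and leaving out each of the other 4 gave 850 to 958. The cutoff here fell between Irf5 at -2.508 and Fabp4 at -2.505.

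Of 18 genes on the primary granule list, 5 had no estimate, among them Mpo, Elane, Prtn3 and Prss57, and 13 were tested. Of these, 10 were higher and 2 lower, beside 29.1% and 30.1% of all rows. The median log2 difference was 2.21 against 0.0065 over all rows. The list is broader than proteins of these granules, as Igfbp4 and Nkg7 are on it. Ms4a3, a marker of granulocyte-monocyte progenitors, averaged 1049 ± 234 FPKM (SD, n = 5) against 71.4, 224 and 328 in MacHigh, Kit-Sca1- and Kit+Sca1+. Igfbp4 was 242 to 331 FPKM against 23.9 to 145, Nkg7 247 to 498 against 7.22 to 259.5, and Ctsg, the granule protease cathepsin G, 829 to 2483 against 60.3 to 1028. Ctsc, the protease that activates granule serine proteases, went the other way: 23.1, 15.2, 31, 27.9 and 24.5 FPKM, below all 14 others, which held 36.5 to 369. The other member called lower was Lyz1, a lysozyme, at -2.40. Lyz1 was lower than in MacHigh (-4.96) but did not pass against Kit-Sca1- or Kit+Sca1+ (limma adjusted p = 0.198 and 0.081). Its 1.1 to 17.1 FPKM in Kit+Sca1- overlapped the libraries of both.

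Of 22 granulocyte-monocyte progenitor genes, 10 were higher, 6 lower and 6 not called, beside 29.1% and 30.1% of all rows, with a median of 0.20. After rescaling to the same FPKM sum 14 were higher and 6 lower. Against MacHigh 9 were higher and 10 lower (median -0.17), against Kit-Sca1- 7 and 6 (median 0.17). Against Kit+Sca1+ 15 were higher and 5 lower (median 0.88). The shares of all rows higher and lower were 31.9% and 29.8% against MacHigh, 23.1% and 25.0% against Kit-Sca1-, and 27.4% and 25.9% against Kit+Sca1+. Mgst1, Clec12a, Rab44, Gfi1, Myb and Ms4a3 lay above every other sorted library. Csf1r, Irf8, Hmgn3 and Serpinf1 lay below.

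Of 26 late neutrophil genes, 4 had no estimate, and 9 of the 22 tested were higher and 8 lower, beside 29.1% and 30.1% of all rows. The groups went opposite ways: 17 were higher and 2 lower than in Kit+Sca1+ (median 2.16), but 6 and 11 against MacHigh (median -0.78) and 6 and 10 against Kit-Sca1- (median -1.10). Over all rows 27.4% were higher and 25.9% lower against Kit+Sca1+, 31.9% and 29.8% against MacHigh, and 23.1% and 25.0% against Kit-Sca1-. The 6 higher are near those shares. The members described next were in part chosen after their values were seen. Camp, the cathelicidin precursor, was 11450, 17500, 4279, 9792 and 25380 FPKM in Kit+Sca1- libraries 1 to 5 against 926 to 5984 elsewhere, a log2 difference of 2.50 (SE 0.42, adjusted p = 5.25e-05). Library 3 fell inside the range of the other groups. Ltf, lactoferrin, was 1645, 4563, 701, 1642 and 6181 FPKM, and Lcn2, a siderophore-binding granule protein, 3275, 4716, 1062, 3557 and 7547. Against MacHigh neither passed (log2 differences 0.94 and 1.06, adjusted p = 0.173 for Ltf and 0.057 for Lcn2). Hp, haptoglobin, was 1077 to 1613 FPKM and lay above all 14 others.

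Other members were lower. Mmp8, the neutrophil collagenase, was 7.51, 8.36, 2.86, 9.01 and 46.8 FPKM, and Retnlg, a resistin-like protein of mature neutrophils, 68.7, 56.1, 21.2, 49 and 238. Both were below all MacHigh and Kit-Sca1- libraries. Library 3 lay within the range of Kit+Sca1+ for both genes and the other 4 lay above it. Il1b was 0.477 to 0.815 FPKM against 2.1 to 25.2. Itgam, Camp, Ltf and Lcn2 were all highest in library 5, next in library 2 and lowest in library 3; whether the 5 libraries hold different shares of maturing cells was not tested. In bulk RNA, fewer cells of a type and less RNA per cell cannot be told apart.

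**Figure D3:**
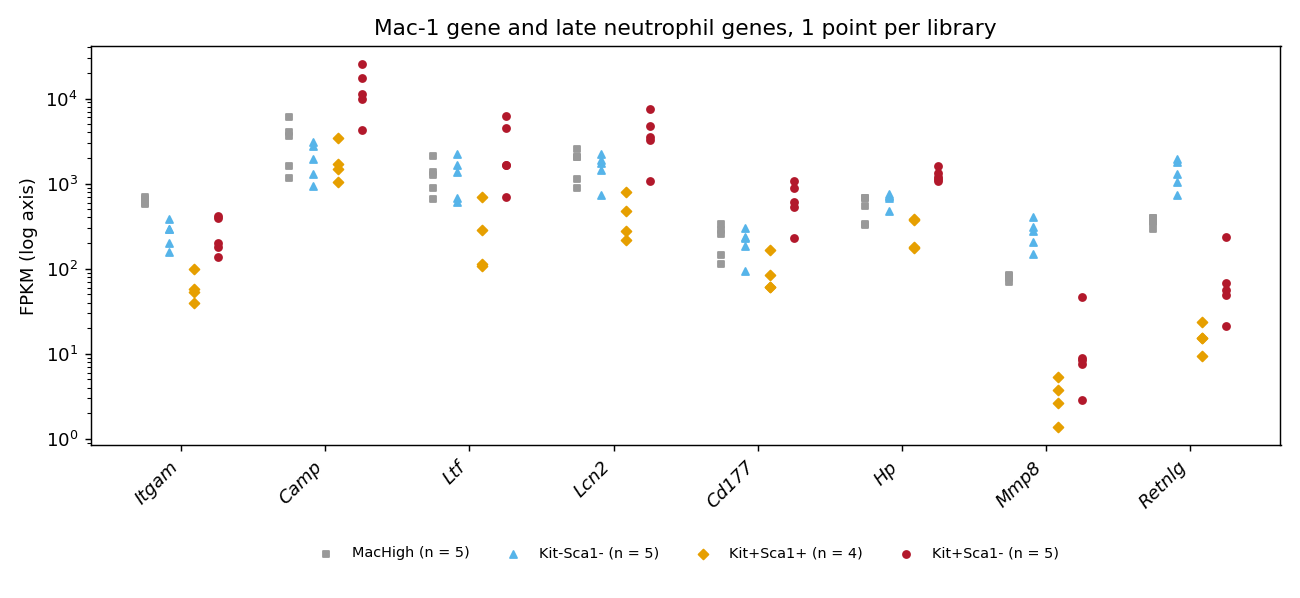
FPKM on a log axis of Itgam and 7 late neutrophil genes in each sorted library, coloured by group. Camp in Kit+Sca1- ran from 4279 to 25380 FPKM while Mmp8 and Retnlg stayed below every MacHigh and Kit-Sca1- library.

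Of 26 granulocyte and monocyte factors, 7 were higher and 16 lower, beside 29.1% and 30.1% of all rows, with a median of -1.01. Gfi1, a repressor that restrains monocyte genes, was 154, 141, 163, 138 and 118 FPKM in Kit+Sca1- against 8.48 to 76.1, a log2 difference of 2.76 (SE 0.22, adjusted p = 5.82e-09). Cebpe and Tfec also lay above every other library. Irf8, needed for monocytes and dendritic cells, was 40.5, 34.2, 82, 45.9 and 163 FPKM against 173 to 753, a log2 difference of -2.32 (SE 0.25, adjusted p = 3.33e-07). Klf4, a monocyte factor, was 1.41 to 5.59 FPKM, against 3.4 to 7.42 in Kit+Sca1+ and at least 39.4 in every library of the other 2 groups. Sfpi1, which encodes the shared myeloid factor PU.1, had a difference of 0.05 and was not called (adjusted p = 0.697).

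Among 19 tested of 25 progenitor factors, 8 were higher and 6 lower, beside 29.1% and 30.1% of all rows, and 11 and 5 after rescaling to the same FPKM sum. Myb, a driver of progenitor proliferation, was 186, 186, 235, 199 and 128 FPKM against 13.5 to 124.5, a log2 difference of 1.80 (SE 0.16, adjusted p = 2.26e-08). Erg was 26.1 to 43.4 FPKM against 3.93 to 23.2, and Fli1 54.8 to 74.7 against 26.1 to 39.7. Both are ETS factors of blood progenitors. Meis1 was 2.26, 1.21, 1.82, 1.85 and 2.28 FPKM, below all 14 other libraries, which held 4.26 to 9.12. Its log2 difference was -1.39 (SE 0.12, adjusted p = 2.57e-08), and Tcf4 and Tcf7l2 were also below every other library.

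Of 28 genes linked to Mll-fusion leukaemia, 7 did not pass the filter on low values. Of the 21 tested, 5 were higher and 13 lower, beside 29.1% and 30.1% of all rows, with a median of -0.58. Mef2c, a factor of Mll-fusion leukaemia stem cells, was 4.67 to 12.2 FPKM against 24.6 to 55.6. Hoxa5, Hoxa6 and Bcl2 were below every other library too. Hoxa9, a central target of Mll fusions, averaged 3.25 ± 1.22 FPKM (SD, n = 5) against 3.99, 5.69 and 6.62 in MacHigh, Kit-Sca1- and Kit+Sca1+, a log2 difference of -0.58 (adjusted p = 0.0403). Of 25 stem cell genes, 15 were tested, 2 were higher and 8 lower. Against Kit+Sca1+ 1 was higher and 10 lower (median -1.32), against MacHigh 5 and 6 (median 0.24) and against Kit-Sca1- 2 and 5 (median -0.24). The shares of all rows were 27.4% and 25.9%, 31.9% and 29.8%, and 23.1% and 25.0%, in the same order. The median log2(FPKM + 1) of the list was 1.33 to 2.07 in the Kit+Sca1- libraries, which overlapped MacHigh (1.64 to 2.26) and Kit-Sca1- (1.46 to 1.87) and lay below Kit+Sca1+ (3.61 to 4.47). Prom1, the CD133 surface protein, was 39.3, 39.1, 21.9, 35 and 30.6 FPKM against 0.548 to 11.5, a log2 difference of 2.89 (SE 0.26, adjusted p = 3.45e-08); the other member higher is Kit, which the gate used. Cd34, a progenitor surface protein, was 6.65 to 28.4 FPKM, below every Kit-Sca1- library (50.3 to 88.1), and Cd48 33 to 73.2 against 109 to 229.

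Genes of cell division were higher in Kit+Sca1- than in the mean of the other groups. Of 30 mitosis genes, 29 were higher and none lower, with a median of 0.62, and all but Kif23 passed. Of 36 DNA replication genes, 36 were higher, with a median of 0.72. Against single groups the 2 lists parted. Beside a background of 31.9% of rows higher against MacHigh, 23.1% against Kit-Sca1- and 27.4% against Kit+Sca1+, mitosis genes were higher in 29, 19 and 28 of 30 cases and replication genes in 36, 9 and 34 of 36. No member of either list was called lower by limma in these comparisons, and none was lower at an unadjusted p under 0.05. For Mcm2 and Mcm6, subunits of the replicative helicase, the log2 differences from Kit-Sca1- were 0.17 and 0.245 (adjusted p = 0.248 and 0.141), and from MacHigh 1.59 and 1.58.

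Mki67, the proliferation marker, was 156, 254, 140, 157 and 196 FPKM in Kit+Sca1- libraries 1 to 5. The other 14 libraries held 68.7 to 139.5, so library 3 lay only just above them, and the log2 difference was 0.84 (SE 0.14, adjusted p = 3.06e-05). Nuf2, a kinetochore protein, was 45.1 to 63.6 FPKM against 17.2 to 39.9, and Ccnb2, a mitotic cyclin, 119.8 to 146 against 45.3 to 110.3. Cdc45, which starts the replication fork with the Mcm complex, was 83.5, 100.4, 94.9, 76.6 and 92.8 FPKM against 18.8 to 72.5, and Lig1, the replicative ligase, 94.9 to 131 against 28.8 to 84.2.

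Of 29 cell cycle regulators, 13 were higher and 5 lower, beside 29.1% and 30.1% of all rows, and 19 and 5 after rescaling to the same FPKM sum. Cdc25a, the phosphatase that activates Cdk2 and Cdk1, was 76.6, 110, 71.5, 67.4 and 104 FPKM against 18.4 to 41.4, a log2 difference of 1.53 (SE 0.14, adjusted p = 2.97e-08). Wee1, the kinase that opposes it, was also above every other library, at 26 to 35.1 FPKM against 6.98 to 18.3. Cdk2, E2f8 and Rbl1 were the others above. Cdkn1a, the inhibitor p21, was 12.8, 13.3, 13.4, 11.4 and 15 FPKM against 24.9 to 189, a log2 difference of -2.51 (SE 0.12, adjusted p = 7.54e-11). Ccnd1, cyclin D1, was 19.7, 13.4, 24.3, 22.3 and 30.1 FPKM against 72 to 255, a log2 difference of -2.31 (SE 0.20, adjusted p = 1.68e-08). Ccnd3, another D cyclin, was higher (0.64), so the D cyclins did not move together.

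**Figure D4:**
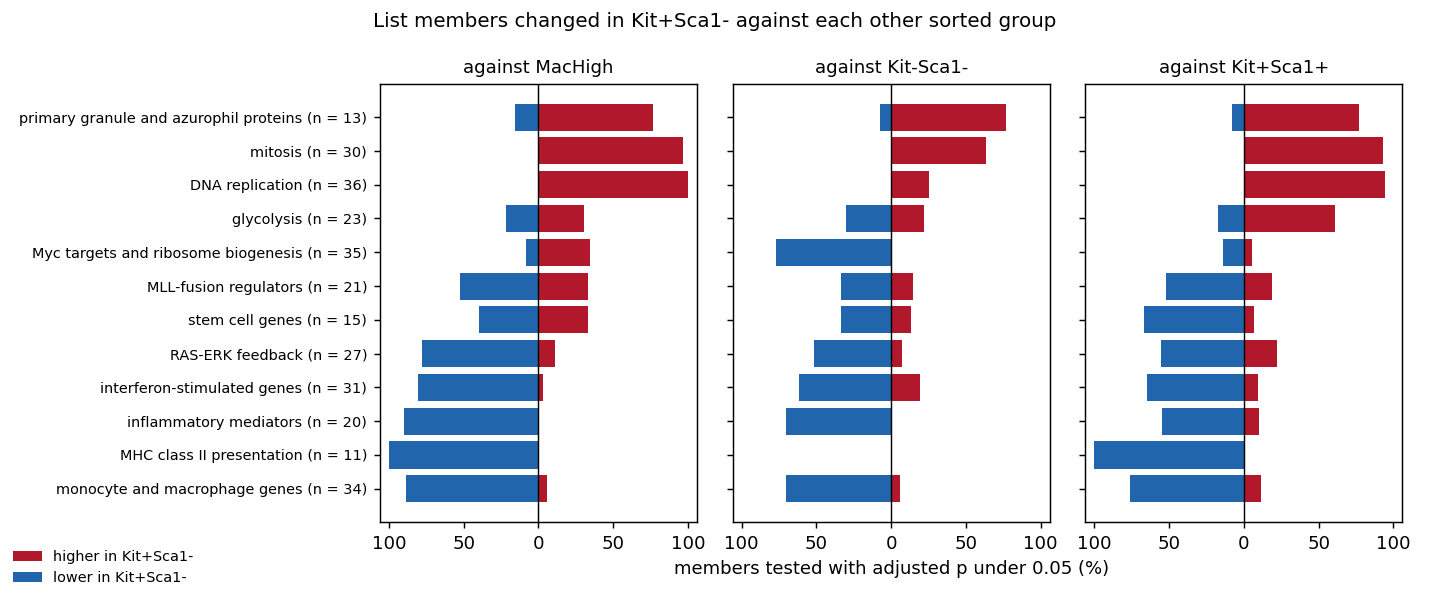
Percent of the tested members of 12 gene lists called higher (red, to the right) or lower (blue, to the left) in Kit+Sca1- against each other sorted group. Replication genes were higher in 36, 9 and 34 of 36 cases and MHC class II genes lower in 11, 0 and 11 of 11, from left to right.

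Of 35 Myc target and ribosome biogenesis genes tested, 1 was higher and 9 lower than the mean of the 3 groups, but 27 were lower than in Kit-Sca1- (background 25.0% of rows lower) and none higher (also 0 at limma's unadjusted p under 0.05), while 12 were higher and 3 lower than in MacHigh, where 31.9% of all rows were higher and 29.8% lower, so the 12 are near that share. Ncl, nucleolin, averaged 133 FPKM in Kit+Sca1- against 85, 206.5 and 139 in MacHigh, Kit-Sca1- and Kit+Sca1+. When libraries were rescaled to the same FPKM sum the count against the mean became 4 higher and 1 lower. Of 19 serine and one-carbon genes, 12 were likewise lower than in Kit-Sca1- and 12 higher than in MacHigh. Asns, asparagine synthetase, lay above every other library, at 36.1 to 56.9 FPKM against 9.69 to 29.4. Of 23 glycolysis genes, 10 were higher and 4 lower than the mean of the 3 groups, beside 29.1% and 30.1% of all rows. Gpi1 was 356 to 414 FPKM against 142 to 219, and Pfkfb3, which makes the activator of phosphofructokinase, 50.4 to 65.3 against 17.4 to 42.1. Slc2a1, the glucose transporter Glut1, was lowest of all sorted groups, 9.04 to 12.5 FPKM against 14.9 to 47.7. Fbp1, which runs the reverse step of gluconeogenesis, was 45.5, 16.5, 19.9, 38 and 16.2 FPKM against 0.317 to 15.3.

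The remaining lists of basic cell functions moved little as deposited, beside 29.1% of all rows higher and 30.1% lower. The balance within these lists changed with the scaling. Of 35 oxidative phosphorylation genes tested, 7 were higher and 5 lower, and 23 and 1 after rescaling to the same FPKM sum. Of 57 cytosolic ribosomal protein genes, 11 were lower and 0 higher by limma (1 higher at an unadjusted p under 0.05), and 3 lower and 1 higher after rescaling. Of 20 aminoacyl tRNA synthetases, which charge tRNAs with amino acids, 3 were higher and 3 lower, and 6 and 0 after rescaling. Of 31 genes of protein folding and N-glycan addition in the endoplasmic reticulum, 9 were higher and 1 lower, and 16 and 0 after rescaling. Xbp1, a transcription factor of the unfolded protein response, was 146, 167, 177, 143 and 158 FPKM against 82.1 to 152, a log2 difference of 0.40 (SE 0.09, adjusted p = 0.000979), with libraries 1 and 4 inside the range of the others.

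Monocyte and macrophage genes were the list with the lowest median among the 26 functional lists, -2.56. Of 34 tested, 30 were lower, 15 of them below every other library, and 3 were higher, beside 30.1% of all rows lower. Apoe and Pltp, lipid carriers of macrophages, fell by 4.29 and 4.14 on the log2 scale. Cx3cr1, the fractalkine receptor of monocytes, averaged 1.36 ± 0.274 FPKM (SD, n = 5) against 96.4, 29.9 and 6.83 in MacHigh, Kit-Sca1- and Kit+Sca1+. The members that rose were Ly6c2 (802 to 1408 FPKM against 201 to 1028), Clec4a2 (60.8 to 114 against 9.43 to 73.4) and Tlr4 (9.71 to 14.7 against 2.43 to 14.8). Ly6c2 is made by granulocyte precursors as well as monocytes. Of 29 lysosome genes, 22 were lower and 5 higher, the last including Neu1, a sialidase, at 57.2 to 86.2 FPKM against 18.3 to 39.

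MHC class II genes separated the groups into pairs. All 11 were lower than in the mean of the 3 groups (median -1.93), 11 were lower than in MacHigh and 11 lower than in Kit+Sca1+ (background 25.9% of rows lower), and none was called against Kit-Sca1-, where the median difference was 0.26. The limma count against Kit-Sca1- was also 0 at an unadjusted p under 0.05. H2-Aa was 298.5, 179, 466, 358.5 and 1236 FPKM in Kit+Sca1- libraries 1 to 5, and 4 of these 5 values lay within the 150 to 629 of Kit-Sca1-. It was 2283 to 4857 FPKM in MacHigh and 4116 to 7275 in Kit+Sca1+. Markers of other cells move with this: the dendritic cell list summed to 43.4 to 145.8 FPKM in Kit+Sca1-, 111 to 172 in Kit-Sca1-, 268.5 to 613 in MacHigh and 598 to 1084 in Kit+Sca1+. Red pulp macrophage markers summed to 81.7 to 144 FPKM in Kit+Sca1-, 71.3 to 153 in Kit-Sca1-, 592.5 to 1129 in MacHigh and 952 to 2208 in Kit+Sca1+. Of 14 dendritic and 14 macrophage genes tested, 14 and 13 were lower in Kit+Sca1- than in the mean of the 3 groups, where 30.1% of all rows were lower. Against Kit-Sca1- alone (25.0% of all rows lower) 3 dendritic genes were lower and 0 higher by limma (also 0 at an unadjusted p under 0.05, median -0.02). Of the macrophage genes 4 were lower and 2 higher than in Kit-Sca1- (median -0.41). Their part in the MHC class II and monocyte results was not tested.

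**Figure D5:**
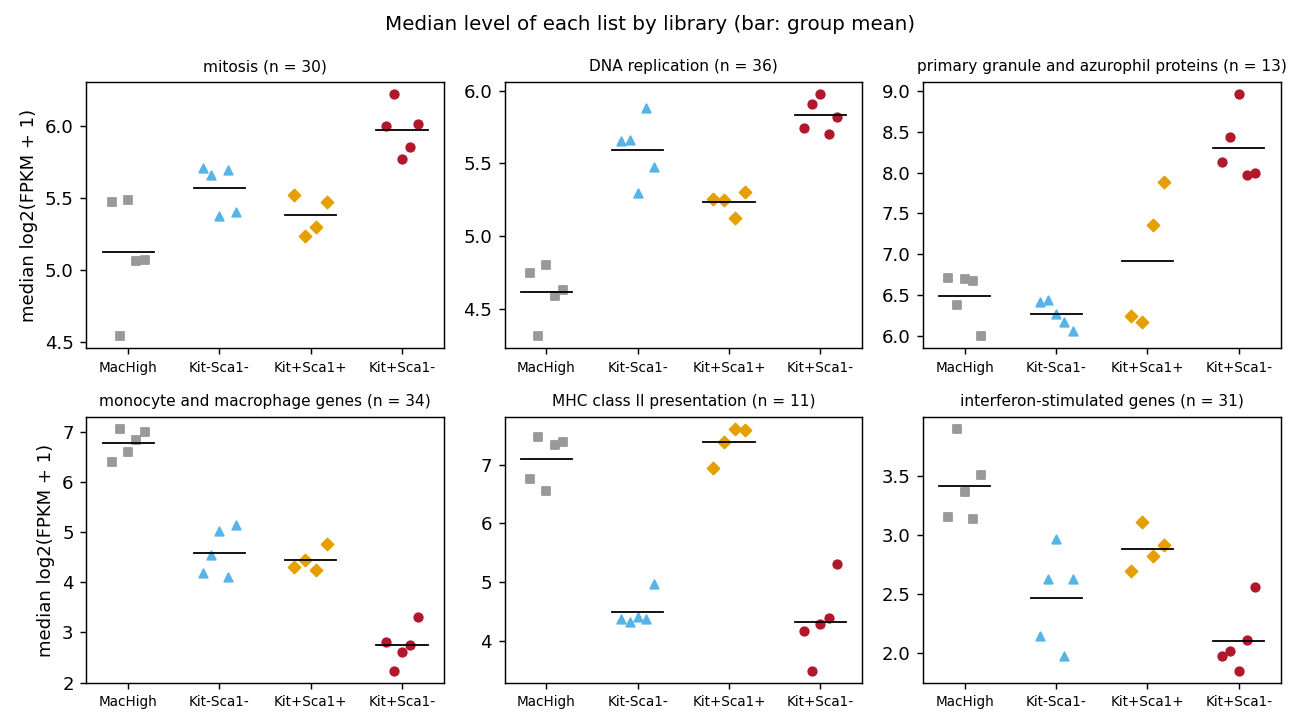
Median log2(FPKM + 1) of the tested members of 6 lists in each sorted library, with a bar at each group mean. Kit+Sca1- stands highest for mitosis genes and the primary granule list, overlaps Kit-Sca1- for DNA replication and MHC class II genes, and stands lowest for monocyte and macrophage genes.

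Signalling and inflammatory genes were mostly lower, beside 30.1% of all rows lower. Of 20 inflammatory mediators, 16 were lower and none higher (median -1.62), and limma's count of higher members at an unadjusted p under 0.05 was also 0. Nlrp3, the inflammasome sensor, was 1.7, 1.12, 1.47, 1.97 and 4.25 FPKM against 10.6 to 43.9, a log2 difference of -2.99 (SE 0.15, adjusted p = 7.54e-11), and Ccl6, a chemokine, was 4.55 to 12 against 20.5 to 522. Of 31 interferon-stimulated genes, 23 were lower and 2 higher, with 10 below every other library, among them Mx1 (1.32 to 4.88 FPKM against 7.62 to 30.1) and Zbp1. Ifit2 went the other way and lay above every other library, at 12.9 to 17.6 FPKM against 2.69 to 10, a log2 difference of 1.53 (SE 0.09, adjusted p = 5.27e-10). Its relatives Ifit1 and Ifit3, were lower, at 0.207 and 0.172 FPKM on average.

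Of 27 genes of RAS-ERK feedback, the phosphatases, Sprouty proteins and immediate targets that follow ERK activity, 19 were lower and 2 higher (median -0.73). Over all rows 30.1% were lower and 29.1% higher, and 7.25% lay below every other library. Dusp5, a nuclear ERK phosphatase, was 1.35, 0.82, 1.6, 1.02 and 1.46 FPKM against 5.22 to 14.8, a log2 difference of -2.02 (SE 0.15, adjusted p = 4.05e-09). Dusp6, Spry4, Etv5, Ccnd1 and Rasa1 were the others below every library. Spry2, an inhibitor of receptor signalling to RAS, was above every library, at 9.93 to 14.2 FPKM against 2.33 to 7.42. All groups carry the same NRASG12V allele by their label.

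Of 32 cytokine and growth factor receptors, 19 were lower and 4 higher, 1 of the 4 being Kit, which the gate used, and 16 and 8 after rescaling to the same FPKM sum. Il6st, the shared gp130 chain, was 2.92 to 5.03 FPKM against 11.6 to 29, and Il6ra, Il4ra, Il10ra, Ifngr2, Ifnar1, Ifnar2 and Csf1r were also below every other library. Igf1r, the receptor for insulin-like growth factor, was 21, 30, 17.6, 22.7 and 21.5 FPKM against 4 to 13.6, a log2 difference of 1.46 (SE 0.19, adjusted p = 1.99e-06). Csf3r, the receptor for G-CSF, was 65.7 to 107 FPKM and passed against the 3 groups (1.17, adjusted p = 0.000843) while overlapping the 11.8 to 85.5 of the others. Of 15 genes of the BCL2 family tested, 11 were lower and 2 higher, and the lower ones held both kinds: the pro-apoptotic Bbc3 was 1.91 to 4.74 FPKM against 10.4 to 22.5, and the anti-apoptotic Mcl1 74 to 127 against 122 to 337. Among 29 polycomb, Mll complex and DNA methylation genes, 9 were higher and 7 lower, or 16 and 3 after rescaling to the same FPKM sum. As deposited, 29.1% of all rows were higher and 30.1% lower, so the 9 are near that share. Dnmt1, the maintenance DNA methyltransferase, was 131 to 174 FPKM against 51.2 to 118.5, and Phc2 19.8 to 28.6 against 33.2 to 48.3.

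Markers of further cell types were read next. The T cell genes Cd3e, Cd8b1 and Cd2 and the B cell genes Pax5 and Ebf1 were at 0.001 in all 5 Kit+Sca1- libraries. None of them met the rule for rows without an estimate. The T cell list summed to 11.3 to 32.7 FPKM, against 10.5 to 12.2 in MacHigh, 24.2 to 32.8 in Kit-Sca1- and 44.7 to 65.2 in Kit+Sca1+. Of 8 T cell genes tested, 1 was higher and 5 lower than the mean of the 3 groups, beside 29.1% and 30.1% of all rows. Against MacHigh alone 3 T cell genes were higher and 1 lower, beside 31.9% and 29.8% of all rows. All 13 NK cell genes tested were lower than the mean of the 3 groups, with sums of 10.7 to 31.5 FPKM in Kit+Sca1-, 37.7 to 73.2 in MacHigh, 67.5 to 222 in Kit-Sca1- and 50.5 to 133 in Kit+Sca1+. Against MacHigh alone 6 of them were higher and 4 lower (median 0.22). Of 7 eosinophil genes tested, 3 were higher (Epx, Prg2 and Prg3) and 3 lower (Ear2, Ccr3 and Alox15), and against Kit+Sca1+ 0 were higher by limma (also 0 at an unadjusted p under 0.05) and 2 lower. Epx, eosinophil peroxidase, was 19.2, 7.78, 20.4, 5.07 and 15.1 FPKM against 0.335 to 10, and Prg2, major basic protein, 25.9 to 82.5 against 3.41 to 80.7. Both passed (adjusted p = 0.000498 and 0.0141), while Ccr3, the eosinophil chemokine receptor, was 0.0143 to 0.282 FPKM. Of the other marker lists, 1 of 14 erythroid genes tested was higher and 2 lower, 2 and 3 of 8 megakaryocyte genes, 1 and 5 of 8 mast cell and basophil genes, 1 and 2 of 4 plasma cell genes, 0 and 3 of 4 B cell genes, and 0 and 3 of 3 endothelial and stromal genes. Their part in the results was not tested.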

How the data were processed

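RNA of 24 libraries was sequenced on Illumina instruments, per the labels. The authors deposited 1 table of FPKM values for 23361 rows. The tools named for it are TopHat2 2.0.4 and Cuffdiff, with genome build mm10, per the submitters' processing notes; read numbers and filters are not given in the sources used here. FPKM corrects for length and depth but keeps no counting error, so no count test was run.

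Values were taken as log2(FPKM + 1). A row was tested when 4 or more of the 19 sorted libraries reached 1 FPKM, after leaving out rows without an estimate, with limma 3.58.1 (R 4.3.3), 1 mean per group and a trend on the mean. The contrast set Kit+Sca1- against the mean of the 3 other group means, and against each group. P-values were adjusted by Benjamini-Hochberg over all 11427 rows. The pseudocount of 1 understates changes of low genes. The fit was tested on simulated data.

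Named genes are the sort markers (described only), the 15 genes above and 15 below every other library with the largest distance to the nearest group mean at 5 FPKM or more, and up to 3 members per list and direction. MicroRNA, snoRNA, Rik, Gm, LOC and other predicted genes were left out of the ranking. Other members named were chosen after their values were seen. A few genes the rule names are not reported here. The comparison, its members and the 37 gene lists were chosen with earlier results of these data known. Promoters and gene positions come from RefSeq tables (GRCm38.p6). Alternatives covered pseudocount, filter, scaling, replicate blocks and left-out libraries. Tables were handled with Python 3.11.15, pandas 2.3.3, numpy 2.4.6 and matplotlib 3.10.9.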

Additional observations from a re-analysis of the deposited data

Results flagged for a closer look

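Among 301 groups of library values of the named genes, 11 held a library far from the others of its group; chance alone gives about 1 in 20. In Kit+Sca1-, library 5 was far above the other 4 for Olfm1 (15.3 FPKM), Arg2 (0.992), Ccr2 (17.4) and Cd22 (6.86). Library 4 stood alone for Epor (0.671), Stab2 (0.175) and Lin28b (0.0111). Library 2 was far above for Olr1 (61.5 FPKM) and far below for Mef2c (4.67). In other groups, Fam101b was far lower in Kit-Sca1- library 4 (16.8 FPKM) and Msr1 in Kit+Sca1+ library 3 (2.42).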

How the results depend on the processing

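Rescaling libraries to the same FPKM sum, with rows without an estimate in the sum, gave 5330 rows higher, 2259 lower, 1510 above and 508 below every other library. Using only name prefixes with a library in all 4 groups gave 1747 above. Asking for a call against each group in place of the separation of libraries gave 1540 and 1332, and asking for a distance of 1 or more on the log2 scale gave 222 above and 347 below. Leaving out 1 library at a time gave 6191 to 6785 rows changed, 3004 to 3363 higher, 3187 to 3497 lower, 895 to 1197 above and 825 to 1131 below, and 6574 to 7068 changed against MacHigh, 4873 to 5760 against Kit-Sca1- and 5249 to 6170 against Kit+Sca1+. Directions turned for Tcf7 (-0.045 with a pseudocount of 5), for Qars (0.015), Uqcrfs1 (0.009) and Derl3 (0.034) with the same FPKM sum, for Derl3 also with quantile normalization (0.259) and without Kit+Sca1- replicate 1 (0.013), for Itgam without Kit+Sca1- replicate 5 (-0.007), and for Cd79b with those prefixes only (-0.036) and without single libraries (-0.004, -0.065, -0.008, -0.021 and -0.051). Leaving out 1 library at a time, the highest values of Itgam and Cd79b were 0.397 and 0.098, and the lowest of Derl3 was -0.104. The cause was not tested. What the sample name prefixes mark is not given in the sources used here. Deviations of same-prefix libraries correlated at 0.342 to 0.481 between Kit+Sca1- and Kit-Sca1- and 0.14 to 0.234 with Kit+Sca1+, but at -0.036 to 0.292 with MacHigh, while same-number pairs with Kit-Sca1- ran from -0.277 to 0.351. With the prefix as a replicate block 7588 rows changed, 892 lay above and 828 below, and blocking on the title number gave 7161, 892 and 829. FPKM gives no read number, so what depth limits is unknown.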
